A study of Mus musculus with 16 samples.

Results

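The comparison described here is rosiglitazone against vehicle in epididymal white fat of wild-type (WT) mice made obese by diet. It uses 8 of the 16 arrays of the study, those labelled as WT, chosen by genotype and treatment and not by any measured value. The mice were of a mixed c57b6/sv129 background, were 4 to 5 months old and were fed a high fat diet for 10 weeks. The treated mice received 10 mg/kg rosiglitazone in the last 2 weeks, and the control mice received vehicle. RNA was pooled from 2 mice, each group has 2 pools, and each pool was hybridised to 2 arrays, which were averaged, so that n = 2 pools per group. The other 4 pools are from mice without Fgf21 (Fgf21-KO) on the same diet, background and treatments. They enter here through the estimate of the spread and where the responses of the genotypes are set side by side.

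Rosiglitazone is a thiazolidinedione and binds PPARG, the nuclear receptor that directs fat cell formation and lipid storage. PPARG pairs with the retinoid X receptor and binds DNA repeats near genes of fatty acid uptake, binding, storage and oxidation. In obese fat the receptor is also known to act against inflammatory genes, and thiazolidinediones are known for raising adiponectin and for supporting brown-like fat cells. Interferon-inducible GTPases are proteins that cells make under interferon gamma and type I interferon to defend against microbes inside the cell. Their promoters carry the interferon-stimulated response element (ISRE) and the gamma-activated site (GAS), bound by STAT and IRF factors.

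Of 25697 probes on the array, 13759 probes of 9543 named genes were detected widely enough to be tested. On the WT arrays 47.6% to 51.0% of the probes were detected, and median signals ran from 174.4 to 192.3. Values below are log2 signals after background correction and quantile normalization, and differences are rosiglitazone minus vehicle, each gene standing in by its brightest tested probe. Of the 9 adipocyte markers with a probe, 9 were detected on every WT array. Treated pool 1 stood apart from the other WT pools before any comparison. Its summed smooth muscle markers came to 98936, against 17615 and 21658 under vehicle and 22084 in treated pool 2. Epithelial markers summed to 935 and 1225 under vehicle, 3892 in treated pool 1 and 1822 in treated pool 2. Ciliated cell markers summed to 719 and 1077 under vehicle, 1004 in treated pool 1 and 2405 in treated pool 2. Of 10 epididymis markers with a probe, 8 were detected on no WT array. Values are therefore given for each treated pool where the text turns on them.

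The second sign in treated pool 1 was in probes of the same gene. For 1795 genes with more than 1 probe detected on all 8 WT arrays, the probes of a gene were compared by each probe's difference from its mean over the other 3 WT pools. Probes differed by over 1 log2 for 303 genes (16.9%) in treated pool 1, against 14 genes (0.780%) in treated pool 2 and 7 (0.390%) and 29 (1.62%) in the vehicle pools. Differences of over 2 log2 were found for 50 genes in treated pool 1 and for 0 in each of the other 3. The mean spread between pools, as a standard deviation, was 0.23 under vehicle and 0.48 under rosiglitazone.

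**Figure D1:**
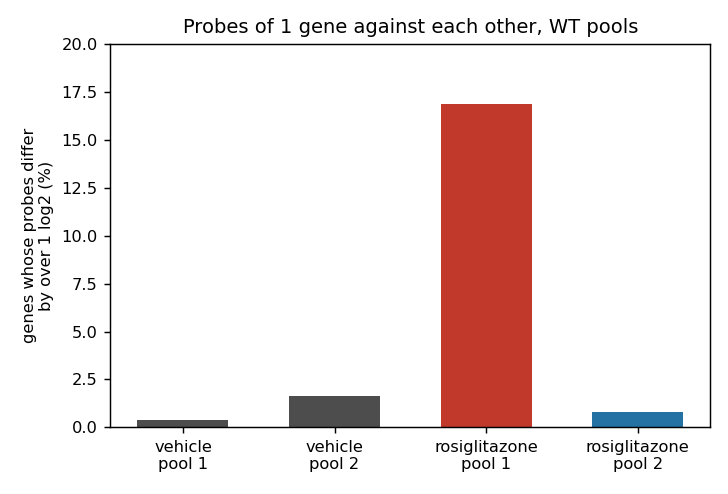
Share of 1795 multi-probe genes (y axis, percent) whose probes differed by over 1 log2, in each of the 4 WT pools (x axis). Treated pool 1 stands at 16.9% and the other 3 pools between 0.390% and 1.62%.

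No probe passed an adjusted p of 0.05 for rosiglitazone in WT fat, 0 of 13759 (0% called), by limma with Benjamini-Hochberg adjustment. At an unadjusted p under 0.05, 1144 probes (8.31%) differed, 617 of them higher (4.48%) and 527 lower (3.83%). Among genes, 450 of 9543 were higher (4.72%) and 281 lower (2.94%) at that level. Genes were also described by separation, where both treated pools lie at least 0.5 log2 above, or below, both vehicle pools. That held upward for 105 genes (1.10%) and downward for 32 genes (0.335%), with no test attached. Counted by probes, 136 were separated upward (0.988%) and 56 downward (0.407%). Most genes far from vehicle in treated pool 1 were not far in treated pool 2. In treated pool 1, 288 genes stood at least 1 log2 above the vehicle mean and 491 at least 1 log2 below it. In treated pool 2 the counts were 119 and 18.

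**Figure D2:**
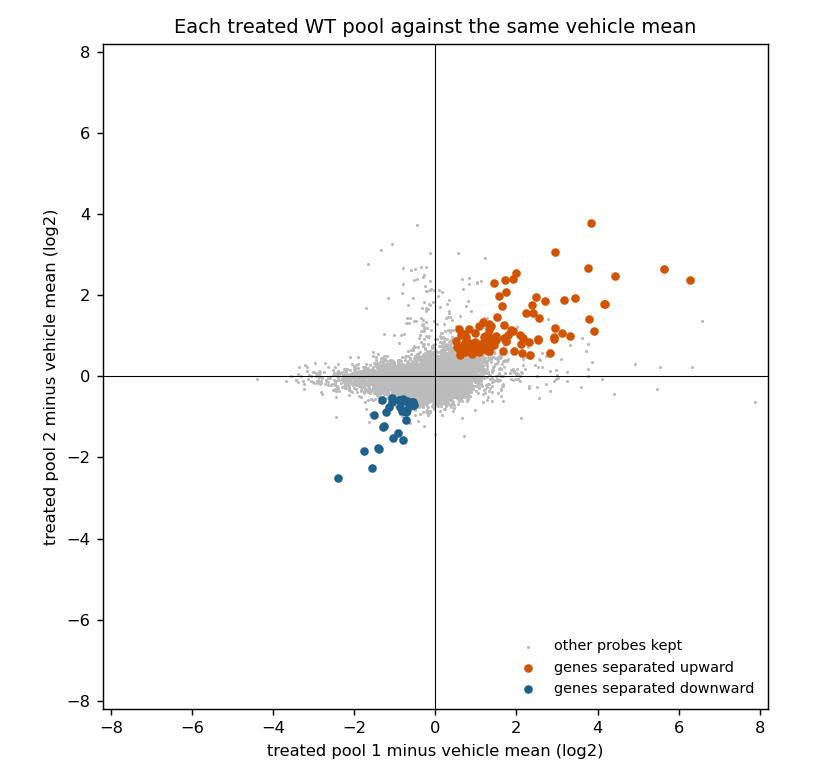
Difference from the mean of the 2 WT vehicle pools for treated pool 1 (x axis, log2) and treated pool 2 (y axis, log2), 1 point per probe tested, with the 105 genes separated upward and the 32 separated downward in colour. Both axes share the vehicle pools, so a shift in those pools moves points along the diagonal. The grey cloud is wider along treated pool 1.

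The interferon-inducible GTPases were lower in both treated pools, and by similar amounts. Of 10 tested, 8 were lower at unadjusted p under 0.05 and 7 were separated downward, against 2.94% and 0.335% of all genes. The median difference of the list was −1.25, with −1.16 in treated pool 1 and −1.38 in treated pool 2, against 0.03, 0.10 and −0.02 for all genes. Igtp (Irgm3), an immunity-related GTPase, stood at 10.43 and 10.69 in the vehicle pools and at 8.17 and 8.06 in the treated pools. The pools did not overlap, and Igtp was 5.45-fold lower under rosiglitazone, a difference of −2.45 (SE 0.19, n = 2 pools) with limma adjusted p = 0.0864. This adjusted p ran from 1.35e-05 to 0.859 over the other settings tried, and leaving out treated pool 1 gave −2.50 with adjusted p = 0.103.

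Promoter windows of the GTPases are printed because these genes were lower together and interferon elements are known in this family. RefSeq windows of 300 bases, 250 before and 50 after the annotated start (GRCm38.p6), are given 5′ to 3′ on the gene's strand, with capitals marking every match of the ISRE letters (GAAA, any 2 bases, GAAA) or the GAS letters TTCNNNGAA, searched on both strands. The windows are Igtp at chr11:58199306-58199605 and Irgm2 at chr11:58214727-58215026, then Gbp3 at chr3:142559794-142560093 and Gbp7 at chr3:142530086-142530385, all on the plus strand.
Igtp: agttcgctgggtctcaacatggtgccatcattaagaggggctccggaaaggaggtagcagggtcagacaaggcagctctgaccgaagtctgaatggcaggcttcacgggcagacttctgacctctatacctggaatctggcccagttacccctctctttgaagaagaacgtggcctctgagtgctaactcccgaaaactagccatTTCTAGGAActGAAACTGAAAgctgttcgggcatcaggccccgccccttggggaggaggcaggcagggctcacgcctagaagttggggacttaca
Irgm2: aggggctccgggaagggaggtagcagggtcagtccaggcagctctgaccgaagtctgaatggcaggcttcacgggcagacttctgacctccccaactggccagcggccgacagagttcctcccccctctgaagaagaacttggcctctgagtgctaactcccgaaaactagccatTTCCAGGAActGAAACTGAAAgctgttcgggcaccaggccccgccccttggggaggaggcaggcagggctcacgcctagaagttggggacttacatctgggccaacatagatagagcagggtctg
Gbp3: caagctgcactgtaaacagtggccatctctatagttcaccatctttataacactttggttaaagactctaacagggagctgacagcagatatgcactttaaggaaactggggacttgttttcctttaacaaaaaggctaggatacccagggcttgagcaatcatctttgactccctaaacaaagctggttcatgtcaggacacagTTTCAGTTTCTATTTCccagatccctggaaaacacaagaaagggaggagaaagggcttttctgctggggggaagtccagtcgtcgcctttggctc
Gbp7: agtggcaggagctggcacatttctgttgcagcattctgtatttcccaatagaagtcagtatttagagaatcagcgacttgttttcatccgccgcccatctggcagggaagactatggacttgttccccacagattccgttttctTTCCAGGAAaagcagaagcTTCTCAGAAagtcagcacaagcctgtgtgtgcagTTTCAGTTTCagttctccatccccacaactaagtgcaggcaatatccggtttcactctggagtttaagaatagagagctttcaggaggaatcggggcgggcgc
In Igtp and Irgm2 a GAS match lies beside an ISRE match, and the longest run of bases the 2 windows share is 61. Of the 7 separated GTPases, 5 have a window in the table, 4 hold the ISRE letters and 3 the GAS letters. Over all 32851 windows of the same length, 3.44% hold the ISRE letters and 8.30% the GAS letters. Gbp3 has a further window, without a match. Ifi47 holds neither. Gvin1 and Gbp10 are named only. A match describes letters in a window and is not a measured binding site.

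Irgm2, another immunity-related GTPase, stood at 10.37 and 10.61 under vehicle and at 9.11 and 8.69 under rosiglitazone, a difference of −1.59 (SE 0.23). Gvin1, a very large interferon-inducible GTPase, stood at 9.57 and 9.29 against 7.67 and 7.59, a difference of −1.80 (SE 0.19, adjusted p = 0.122). Ifi47 (Irg47), of the same clan, stood at 7.55 and 7.30 against 6.38 and 5.91. For each of these the pools lay apart by more than the gap between pools of a group. Guanylate-binding proteins, which coat and break vacuoles around microbes, lay lower as well. Gbp3 stood at 10.33 and 10.50 under vehicle and at 9.12 and 9.17 under rosiglitazone (−1.27, SE 0.13, adjusted p = 0.122), and its other tested probe stood at 9.82 and 9.88 against 8.22 and 8.72. Gbp10 stood at 6.96 and 6.92 against 5.68 and 5.72, with a detected signal on 2 of 4 treated arrays. Gbp7 stood at 8.49 and 8.70 against 7.81 in treated pool 1 and 7.04 in treated pool 2, so the gap was wider in pool 2. Gbp2 differed less, at 12.49 and 12.55 against 12.11 and 12.14. The 2 members on the other side were Irgq (9.49 and 9.44 against 9.80 and 9.52) and Irgm1 by its brightest probe. That Irgm1 probe stood at 12.65 and 12.76 against 12.86 and 12.85, while the dimmer Irgm1 probe stood at 8.72 and 8.89 against 7.98 and 7.82, so the probes of Irgm1 disagree. GBP genes are close paralogs, and the signal of 1 probe may include a neighbour.

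**Figure D3:**
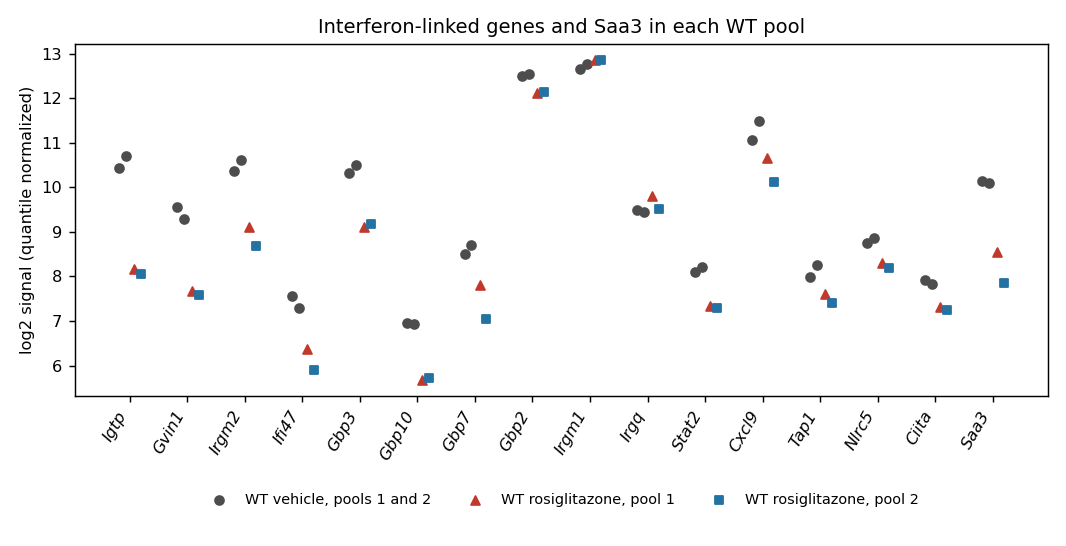
Log2 signal (y axis, quantile normalized) of 16 genes in the 4 WT pools, 1 point per pool. The 2 treated pools of Igtp (8.17 and 8.06) lie below the vehicle pools (10.43 and 10.69), and the same holds for the other genes shown except Irgm1 and Irgq.

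The wider interferon and antigen presentation lists were lower by less. Of 23 genes of the type I interferon response, 18 were lower and 7 of them passed unadjusted p under 0.05 (2.94% of all genes), with a median of −0.40 (−0.28 and −0.39 in the treated pools). Stat2, the transducer of type I interferon signals, stood at 8.10 and 8.21 under vehicle and at 7.33 and 7.29 under rosiglitazone, the 1 gene of the list separated downward (−0.84, SE 0.14, adjusted p = 0.316). Ifit2, an interferon-induced RNA-binding protein, stood at 8.63 and 8.62 against 7.93 and 8.15. Irf9, the partner of Stat2, stood at 9.17 and 9.41 against 8.86 and 8.96 by its brightest probe, and at 7.66 and 7.66 against 6.06 and 6.74 by another probe of Irf9. All 27 antigen presentation genes tested were lower, 8 at unadjusted p under 0.05 (2.94% of all genes) and 16 without overlap of the pools (15.6% of all genes were lower without overlap). Their median was −0.31, with −0.48 in treated pool 1 and −0.29 in treated pool 2. Tap1, the peptide transporter, stood at 7.98 and 8.26 against 7.61 and 7.40. Nlrc5, the transactivator of class I genes, stood at 8.74 and 8.86 against 8.30 and 8.18. Ciita, its class II counterpart, stood at 7.92 and 7.84 against 7.32 and 7.25. Cd274 (PD-L1) and Ido1, the tryptophan-degrading enzyme, are not members of these lists. Cd274 stood at 10.39 and 10.59 against 9.78 and 9.61, and Ido1 at 6.36 and 6.55 against 5.76 and 5.62.

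Cytokines, chemokines and acute phase genes lay below vehicle by little as a list. Of 31 tested, 18 were lower and 13 higher, with 12 lower and 2 higher without overlap of the pools (15.6% and 18.7% of all genes), and 2 were lower at unadjusted p under 0.05 (2.94% of all genes). Their median was −0.13 in treated pool 1 and −0.12 in treated pool 2. Saa3, the acute phase protein made by fat and macrophages, stood at 10.15 and 10.09 under vehicle and at 8.56 and 7.86 under rosiglitazone, 3.77-fold lower (−1.91, SE 0.49, adjusted p = 0.524). Chil1 and Fpr2 are not members of this list. Chil1, a chitinase-like protein, stood at 8.40 and 8.61 against 7.09 and 6.75. Fpr2, a receptor for formyl peptides and serum amyloid A, stood at 8.22 and 8.03 against 7.21 and 6.72. Neither Saa3, Chil1 nor Fpr2 overlapped between the groups. Cxcl9, an interferon-induced T cell chemokine counted with the type I interferon list, stood at 11.05 and 11.48 against 10.65 and 10.12, without overlap. Ccl2, the monocyte chemokine, stood at 7.35 and 7.26 against 6.51 and 6.98, below vehicle in both treated pools. Of 25 macrophage genes 20 were lower, 11 of them without overlap of the pools (15.6% of all genes). Their median was −0.35 in treated pool 1 and −0.08 in treated pool 2. Only Aif1 passed unadjusted p under 0.05 among them, at 7.88 and 8.06 against 7.17 and 7.38. Summed macrophage markers came to 20727 and 22306 under vehicle, 11848 in treated pool 1 and 21323 in treated pool 2, a sum to which Lyz2 adds the most. Cd163, a scavenger receptor of macrophages, stood at 10.27 and 10.32 against 10.06 and 10.03. The part of macrophage content in the interferon values was not tested. Of 13 lymphocyte genes, 7 were lower and 6 higher, and Nkg7, a granule protein of cytotoxic lymphocytes, stood at 6.59 and 6.74 against 5.93 and 5.59. In bulk fat, fewer cells of a type and less RNA per cell cannot be told apart.

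Set against the mice without Fgf21, the difference in response was tested as an interaction. No probe passed an adjusted p of 0.05, 0 of 13759 (0% called), and 681 probes (4.95%) and 458 genes (4.80%) passed unadjusted p under 0.05. For rosiglitazone in Fgf21-KO fat itself, 776 probes (5.64%) passed at that level. Of the 10 GTPases, 7 were among those 458. In the Fgf21-KO pools Igtp stood at 8.68 and 8.19 under vehicle and at 8.31 and 8.37 under rosiglitazone, so both vehicle pools of that genotype lay below both WT vehicle pools. The WT response of Igtp minus the Fgf21-KO response was −2.35 (SE 0.28, limma adjusted p = 0.50). Gbp3 gave −1.42 (SE 0.18, adjusted p = 0.50). For Stat2 the Fgf21-KO response was −0.29, and for Ciita −0.51, next to −0.59 in WT. The interaction shares its WT pools with the comparison above.

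Genes of fat synthesis were mostly higher, with small differences. Of 25 fatty acid and triglyceride synthesis genes, 19 were higher, 2 at unadjusted p under 0.05 (4.72% of all genes), with a median of 0.19 (0.38 and 0.13 in the treated pools). Fasn, fatty acid synthase, stood at 6.27 and 6.10 under vehicle and at 7.23 and 6.96 under rosiglitazone (0.90, SE 0.26, adjusted p = 0.539). Fads2, the delta-6 desaturase, stood at 5.45 and 6.05 against 8.69 in treated pool 1 and 6.71 in treated pool 2, with a signal detected on 3 of 4 vehicle arrays. Elovl6, which elongates saturated fatty acids, stood at 8.14 and 7.91 against 8.86 and 8.28, and Fads1, the delta-5 desaturase, at 12.37 and 12.45 against 13.45 and 12.56. These 4 enzymes are among the largest separations of the list, so their lack of overlap follows from how they were named. Of the 25 genes, 12 were higher and 3 lower without overlap of the pools (18.7% and 15.6% of all genes). For Fads1 treated pool 2 lay close to vehicle. Of 14 cholesterol synthesis and uptake genes 9 were higher, 4 at unadjusted p under 0.05 (4.72% of all genes), with medians of 0.34 and 0.16 in the treated pools. Sqle, squalene epoxidase, stood at 9.08 and 9.06 against 9.42 and 9.60, and Fdps, farnesyl diphosphate synthase, at 10.69 and 10.83 against 11.58 and 11.04.

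Acot1, which cleaves long-chain acyl-CoA in the cytosol and is a known PPAR-responsive gene, stood at 6.53 and 6.83 under vehicle and at 8.68 and 9.22 under rosiglitazone, 4.82-fold higher (2.27, SE 0.26, limma adjusted p = 0.137). The pools of Acot1 did not overlap, and the higher value was in treated pool 2. A second, dimmer Acot1 probe was detected on 2 of 4 treated arrays and stood at 5.44 and 5.95 against 5.17 and 7.07, so the probes differ in treated pool 1. Acot1 has close paralogs on the same chromosome, and the probe letters were not used here to tell them apart. In the Fgf21-KO pools the Acot1 response was −0.45, and the difference of responses was 2.72 (SE 0.37, adjusted p = 0.50). Acot11, another thioesterase, stood at 7.24 and 7.59 against 8.40 and 7.86. Of 10 thioesterases, 6 were higher and 3 of them passed unadjusted p under 0.05 (4.72% of all genes), with medians of 0.23 and 0.11 in the treated pools.

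PPARG target genes as a list did not lie higher in WT fat. Of 33 tested, 19 were higher and 14 lower. At unadjusted p under 0.05, 1 was higher and 1 lower (4.72% and 2.94% of all genes). The median was 0.02 (0.02 and −0.04 in the treated pools). Fabp5, a fatty acid binding protein, stood at 9.06 and 9.06 under vehicle and at 10.03 and 9.30 under rosiglitazone. Lipe, hormone-sensitive lipase, stood at 11.76 and 11.66 against 11.11 and 11.28, lower in both treated pools. Pparg itself stood at 13.50 and 13.60 against 13.14 and 13.54. Adipoq (adiponectin) stood at 15.29 and 15.21 against 15.05 and 15.11, and Lpl, which frees fatty acids from lipoproteins, at 15.75 and 15.77 against 15.73 and 15.72. Adipoq, Lpl and Lep lie near the top of the signal range, where the highest tested probe reached 15.88 to 15.95 in the WT pools. Differences between pools can be compressed there, so these values do not show that the genes were unchanged. Retn (resistin) was the adipokine separated upward, at 7.08 and 6.99 against 7.84 and 7.81 (0.79, SE 0.16, adjusted p = 0.407). Lep (leptin) stood at 15.70 and 15.50 against 15.55 and 15.73, overlapping between the groups. Fabp4 stood at 6.09 and 5.96 against 6.62 and 5.93, and Cd36 at 6.03 and 5.74 against 5.86 and 6.07, both overlapping. These Fabp4 and Cd36 signals lie near the lowest detected signal of the WT arrays, 5.54 to 5.75. They too do not show that the genes were unchanged. Angptl4, an inhibitor of Lpl, stood at 14.43 and 14.36 against 14.66 and 14.29, and Pdk4, which holds back pyruvate oxidation, at 11.21 and 11.43 against 11.21 and 11.11. Slc2a4, the insulin-regulated glucose transporter, stood at 10.10 and 10.04 against 9.10 in treated pool 1 and 10.18 in treated pool 2. Pck1 stood at 7.61 and 6.89 against 7.83 and 7.40. Fgf21, the hormone absent in the other genotype, stood at 7.54 and 7.80 against 8.38 and 7.18. In Fgf21-KO fat the median difference of the 33 PPARG targets was 0.20. Of the 33, 6 had an unadjusted limma interaction p under 0.05 (4.80% of all genes).

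Most mitochondrial genes were higher by small amounts, more so in treated pool 1. Of 65 respiratory chain genes 47 were higher, 20 of them without overlap of the pools against 1 lower (18.7% and 15.6% of all genes), and 4 were higher at unadjusted p under 0.05, near the 4.72% of all genes, with a median of 0.21 in treated pool 1 and 0.05 in treated pool 2. Atp5a1, a subunit of ATP synthase, was separated upward, at 9.51 and 9.34 against 10.02 and 10.10. Ndufb5, of complex I, stood at 8.88 and 8.36 against 9.34 and 9.16. Of 17 genes of branched-chain amino acid breakdown 14 were higher, 10 without overlap of the pools (18.7% of all genes). Their median was 0.18 (0.27 and 0.14 in the treated pools). Acadsb, a short branched-chain acyl-CoA dehydrogenase, stood at 10.05 and 9.92 against 10.43 and 10.39. Of 20 beta-oxidation genes 10 were higher and 10 lower. The thermogenic list held 13 of 15 genes higher by the mean of the treated pools, with a median of 0.71 in treated pool 1 and −0.06 in treated pool 2. Ucp1, the uncoupling protein of brown fat, stood at 8.74 and 9.04 against 9.86 and 8.80, and Cidea at 9.85 and 9.80 against 10.69 and 9.88. The higher values of Ucp1 and of most of the list were in treated pool 1, the pool with the muscle and epithelial transcripts, and the part of these in the result was not tested.

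Mast cell genes were higher, most of them in both treated pools. Of 8 tested, 8 were higher and 6 passed unadjusted p under 0.05 (4.72% of all genes), with a median of 0.77 (1.03 and 0.54 in the treated pools). Tpsb2, a tryptase of mast cell granules, stood at 6.82 and 6.98 under vehicle and at 8.12 and 7.89 under rosiglitazone (1.11, SE 0.16, adjusted p = 0.203). Mcpt4, a chymase, stood at 7.51 and 7.50 against 8.49 and 8.36 (0.92, SE 0.13, adjusted p = 0.203), 1.90-fold higher. Tpsab1 stood at 8.0 and 7.91 against 9.02 and 8.43, Cma1 at 6.80 and 6.60 against 7.46 and 7.21, and the carboxypeptidase Cpa3 at 7.70 and 7.99 against 8.80 and 8.41. These 5 granule proteases have the largest separations of the list, so their lack of overlap follows from how they were named. Of the 8 genes, 6 were higher without overlap of the pools (18.7% of all genes). Fcer1a, the receptor for immunoglobulin E, was detected on 1 of 4 vehicle arrays and 3 of 4 treated arrays. Hdc, which makes histamine, was above vehicle only in treated pool 2 and the transcription factor Gata2 chiefly in treated pool 1. The summed mast cell markers were 1342 and 1629 under vehicle and 2354 and 2667 under rosiglitazone. Of the 8, 2 had an interaction p under 0.05 (4.80% of all genes), and the Tpsb2 response in the Fgf21-KO pools was 0.17.

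**Figure D4:**
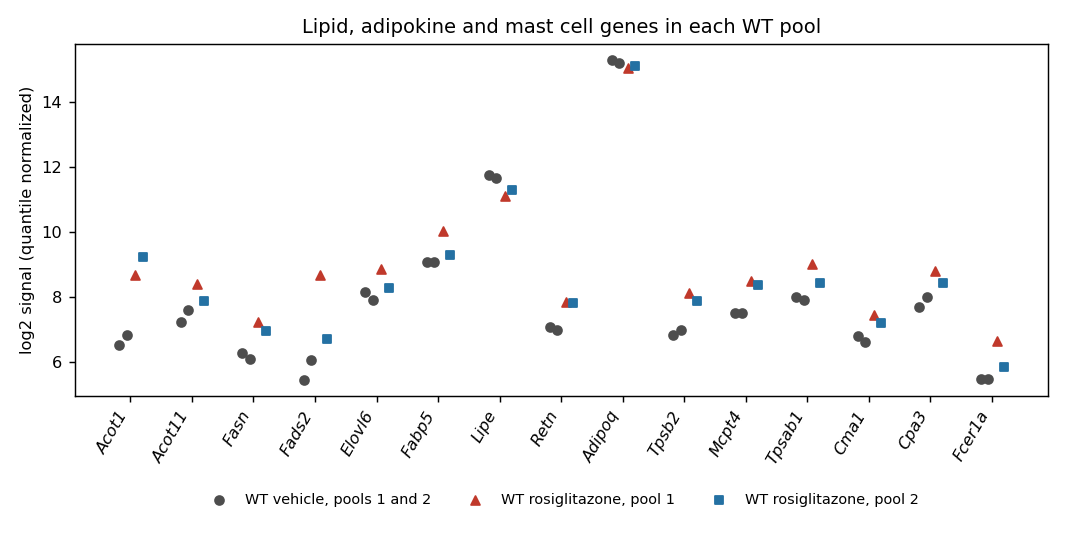
Log2 signal (y axis, quantile normalized) of 15 lipid, adipokine and mast cell genes in the 4 WT pools, 1 point per pool. Acot1 stands at 8.68 and 9.22 in the treated pools against 6.53 and 6.83 under vehicle, and Adipoq at 15.05 and 15.11 against 15.29 and 15.21.

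Smooth muscle, epithelial and ciliated cell lists had medians above the vehicle mean in both treated pools, by differing amounts, while mesothelium and endothelium lists did not. The summed ciliated cell markers of treated pool 1 (1004) lay between the vehicle pools (719 and 1077). Of 15 mesothelium genes 12 were lower, with a median of −0.40 in treated pool 1 and −0.08 in treated pool 2, and of 21 endothelial genes 12 were lower, with medians of −0.05 and 0.01. Of 15 smooth muscle genes, 1 of which passed only through the treated WT arrays, 13 were higher, with a median of 2.17 in treated pool 1 and 0.18 in treated pool 2. Actg2, the enteric smooth muscle actin, stood at 6.09 and 8.70 under vehicle, at 13.98 in treated pool 1 and at 8.76 in treated pool 2, and Myh11, smooth muscle myosin, at 8.29 and 9.21 against 12.52 and 9.56. Of 14 epithelial genes tested, 5 passed the detection filter only through the treated WT arrays. Of the other 9, 8 were higher, 4 at unadjusted p under 0.05 (3.97% of the 9168 genes kept without the treated WT arrays) and 4 separated upward (0.764%), with a median of 1.11 in treated pool 1 and 0.61 in treated pool 2. Esrp1, a splicing regulator of epithelia and 1 of the 5 left out, stood at 4.91 and 5.85 against 9.82 and 7.86. It was detected on 2 of 4 vehicle arrays. Of 10 ciliated cell genes, 2 passed only through the treated WT arrays, and the median of the other 8 was 0.27 in treated pool 1 and 0.34 in treated pool 2. Tekt1, a protein of ciliary microtubules, stood at 5.18 and 6.33 against 5.47 and 8.26.

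**Figure D5:**
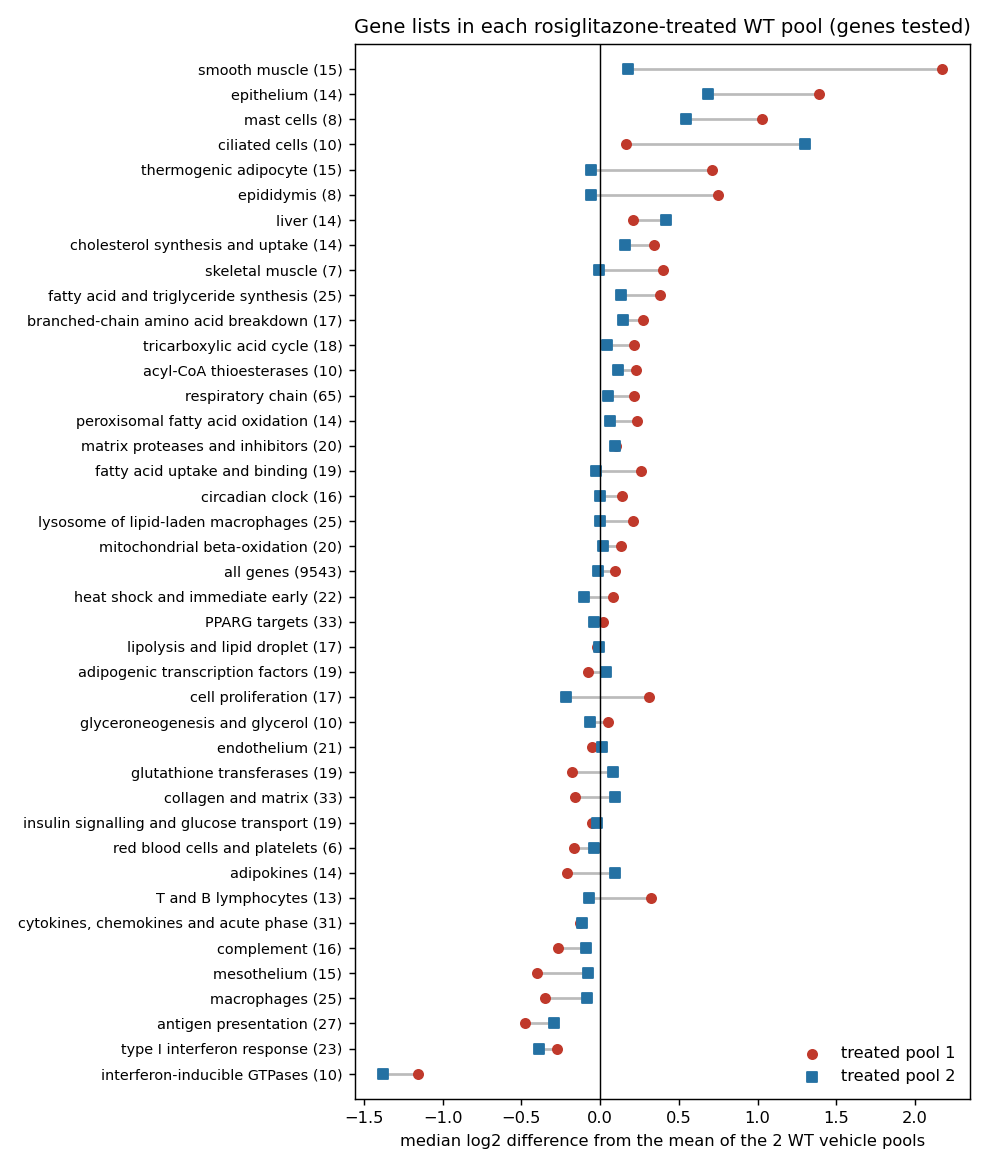
Median log2 difference from the mean of the WT vehicle pools (x axis) for each gene list (y axis, genes tested in brackets) in treated pool 1 (red circles) and treated pool 2 (blue squares). Interferon-inducible GTPases lie at −1.16 and −1.38, mast cells at 1.03 and 0.54, and smooth muscle at 2.17 and 0.18. Lists are drawn in full, and 5 of 14 epithelial and 2 of 10 ciliated cell genes passed only through the treated WT arrays.

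Many of the genes separated upward were not detected on every vehicle array. Of the 105 genes, 18 were not detected on any vehicle array, 51 on some, and 36 on all 8 WT arrays, and 76 stood higher in treated pool 1. Of the 105, 35 passed the detection filter only through the treated WT arrays, so that they had to differ. Mia, Wfdc15b, Rbfox3, Prm1, Arg2, Prkag2 and Kcnk1, given below, are among these 35. When the 35 are left out, 70 genes remain (0.764% of the 9168 kept without the treated WT arrays). Of the 105, 9 were in the lists of epithelium, smooth or skeletal muscle, epididymis, ciliated cells or mesothelium. Mia, a small secreted protein, stood at 4.78 and 6.20 against 8.43 and 8.57, with a signal on 2 of 4 vehicle arrays. Wfdc15b, on the epididymis list, stood at 5.36 and 6.12 against 12.02 and 8.11, and Rbfox3, an RNA-binding protein of neurons, at 5.04 and 6.25 against 11.28 and 8.29. Pdzk1, a scaffold protein of epithelial membranes, stood at 4.78 and 8.06 against 10.27 and 10.20, so its vehicle pools lay far apart. Where no vehicle array was above background the fold is a bound taken from the lowest detected signal. Prm1, the sperm protamine, stood at 8.11 and 6.82 in the treated pools and was at least 3.57-fold higher by their mean and at least 2.29-fold by treated pool 2 alone. Arg2, mitochondrial arginase, stood at 8.04 and 6.54, at least 3.17-fold higher by the mean and at least 1.89-fold by treated pool 2 alone. Prkag2, a subunit of AMP-activated protein kinase, stood at 7.52 and 6.91, at least 3.01-fold and at least 2.43-fold. Kcnk1, a potassium leak channel, stood at 5.43 and 7.46 against 10.21 and 9.13, and Osr2, a zinc-finger transcription factor, at 6.44 and 6.88 against 10.83 and 8.45. Sct, the hormone secretin, was detected on all 8 arrays and stood at 6.84 and 6.91 against 7.96 and 8.12. In Fgf21-KO fat 19 of the 105 genes were detected on no array and 51 on some, which leaves 35 detected on all 8 Fgf21-KO arrays. Of these 35, 25 were higher and 10 lower under rosiglitazone there, with a median of 0.17 against 1.05 in WT, where the genes were chosen. Of the 32 genes separated downward, 24 were detected on all 8 Fgf21-KO arrays, with 15 lower and 9 higher there and a median of −0.13 against −1.0 in WT.

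Some genes stood far from the other 3 WT pools in treated pool 1 alone. Mfsd2a, a lipid transporter, stood at 4.74, 5.22 and 5.21 in the other pools and at 11.32 in treated pool 1. P2rx1, an ATP-gated channel, stood at 10.30 against 5.26, 5.48 and 5.67. In the other direction Cav2 (caveolin 2) stood at 12.02, 12.25 and 12.08 in the other pools and at 7.72 in treated pool 1, and Hif1a, the hypoxia-inducible factor, at 9.09, 8.93 and 9.02 against 5.45. Sptbn1, spectrin, stood at 12.83, 13.04 and 12.87 against 9.78 by its brightest probe, while another Sptbn1 probe stood at 10.68, 10.86 and 10.81 against 10.48. Eif4g2 stood at 10.17, 10.00 and 10.31 against 6.91, while its second probe stood at 6.30 and 6.45 under vehicle and at 6.84 and 7.02 in the treated pools. Treated pool 2 stood highest, with vehicle pool 2 next, in Cldn2, an epithelial claudin, at 9.71 against 4.69, 7.27 and 5.54, and in Cdhr5, a brush border cadherin, at 9.56 against 5.20, 7.69 and 5.11. It stood low in Bst2 (tetherin), an interferon-induced membrane protein, at 6.27 against 7.93, 7.46 and 7.69.

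The authors' deposited table, which takes the 4 arrays of a group together, calls 485 probes changed by rosiglitazone in WT, 387 of them higher and 98 lower. Its ratios match ratios of the non-normalized group means. On the tested probes, 335 called higher and 98 called lower in the authors' deposited table could be set beside the pools. Of these, 220 of 335 had both treated pools above both vehicle pools (17.6% of all tested probes), and 74 of 98 had both below (17.3%). The calls rest on the same arrays, so a share above that of all probes was built in. The median of the lower calls in the authors' deposited table was −2.24 in treated pool 1 and −0.18 in treated pool 2, and for the higher calls 1.20 and 0.47. The authors' deposited table gives a ratio of 0.269 for Igtp, 0.421 for Gvin1 and 0.512 for Gbp3, each lower under rosiglitazone.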

How the data were processed

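Epididymal fat RNA of 8 pools (4 groups of 2) was hybridised to 16 Illumina MouseRef-8 arrays (1 colour), 2 per pool. The deposited non-normalized table holds, per the file headers, mean bead signals (intensity, linear scale) and detection p-values. The authors' deposited normalized table holds linear intensity values and was used as an alternative. The authors' deposited statistics table gives, per the file headers, mean intensity by group, the ratio of treated to vehicle, and a p-value from VAMPIRE judged by Bonferroni. The other steps of the authors are not given in the sources used here. The 80 value columns not needed here were left out.

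Signals were background-corrected by detection p with limma 3.58.1 in R 4.3.3 (nec, offset 16) and then quantile normalized. Their log2 values were averaged per pool. A probe was kept if 4 or more of the 16 arrays gave it a detection p no higher than 0.05. Of the probes, 23978 had a symbol, 23962 of them matched by Entrez ID, and 789 kept probes had none. A model with 4 group means was fitted (lmFit, eBayes; 4 residual and 2.74 prior degrees of freedom), so all groups share 1 spread, with two-sided tests adjusted by Benjamini-Hochberg over all probes. SE comes from this fit. With 2 pools per group, precision is set by the pools, and p-values measure the spread between pools of 2 mice.

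Named genes were the 15 largest separations each way, the 5 largest in each of 41 lists, a fixed panel (Cfd was not tested), the 8 farthest above and below in each treated pool, the 5 smallest p, and the 5 largest interactions among separated genes. Cd274, Fcer1a, Gata2, Gbp2, Hdc, Ido1, Irf9, Irgm1, Irgq, Lyz2 and Sct were named after their values were seen. Members and lists were chosen with earlier results of these data known. The fit was tested on simulated data. Alternatives changed background, scaling, source table, probe filter, variance model, groups fitted and blocks, and left out each WT pool.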

Additional observations from a re-analysis of the deposited data

Results flagged for a closer look

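For 3 genes both rosiglitazone pools lay at least 0.5 log2 above both vehicle pools in WT fat and at least 0.5 log2 below both in Fgf21-KO fat. Among all 9543 genes, 105 were separated upward in WT and 51 downward in Fgf21-KO fat. The 3 were picked by opposite separation, so a large difference of responses was built in. Faah, which breaks down the endocannabinoid anandamide, stood at 6.42 and 7.08 under vehicle and 8.25 and 7.74 under rosiglitazone in WT, and at 6.33 and 7.38 against 5.57 and 5.08 in Fgf21-KO fat, where it was detected on 1 of 4 treated arrays, so the size of its response there has only a bound. Its WT response minus its Fgf21-KO response was 2.77 (SE 0.57, limma adjusted p = 0.827). Espn, an actin-bundling protein, stood at 7.0 and 7.39 against 8.59 and 8.03 in WT and at 6.70 and 6.60 against 5.89 and 5.89 in Fgf21-KO fat, with 2 of 4 treated arrays detected there, a difference of responses of 1.88 (SE 0.31, adjusted p = 0.745). Ociad2 stood at 6.52 and 6.63 against 7.85 and 7.22 in WT and at 6.70 and 6.84 against 5.98 and 5.73 in Fgf21-KO fat, with 4 of 4 detected, a difference of 1.87 (SE 0.32, adjusted p = 0.745). None of these differences passed the adjusted test.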

How the results depend on the processing

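Precision is limited by 2 pools per group and by treated pool 1. The count of probes at adjusted p of 0.05 or less, 0 as reported, was 2 without background correction, 2 on the authors' normalized table and 2 with trend and robust fitting (Gbp3 and Igtp each time), 1 with offset 50, with median scaling or on probes detected on all 8 WT arrays (Igtp each time), 0 with no probe filter, WT pools only or pool weights, and 61 on single arrays with pool as random block, which gave 22 for the interaction. Leaving out 1 WT pool gave 0 to 2697, and 0 to 1698 for the interaction. The high ends came without treated pool 2, when treated pool 1 is alone and is assumed to vary like the other groups. Arg2 was called without treated pool 1 and Mia without vehicle pool 2. Both passed the detection filter only through the treated WT arrays, so that they had to differ. At unadjusted p under 0.05 the 1144 probes became 2017 without the filter, 1939 with the random block, 538 on WT pools only, 632 with pool weights, and 602 to 4944 leaving out 1 pool. Separated probes, 192, became 37 without background correction and on the authors' table, 89 with offset 50, 72 on probes detected on all 8 WT arrays, and 517 to 3223 leaving out 1 pool, where fewer pools have to be cleared.

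The GTPase median of −1.25 was −0.70 without background correction and on the authors' table, −1.0 with offset 50 and −0.22 with no probe filter, where more genes are listed. The type I interferon median was −0.28 without background correction and on the authors' table, −0.10 with no filter, and −0.39 to −0.28 leaving out 1 pool. Epithelium was at 0.56 without background correction and on the authors' table and 0.58 on probes detected on all 8 WT arrays. Thioesterases were at 0.047 with no filter and 0.40 on probes detected throughout, lymphocytes at −0.42, adipogenic factors at −0.087 and matrix proteases at 0.059 on the latter, and matrix proteases at 0.061 and cytokines at −0.044 with no filter. The cause of these shifts was not tested. A filter chosen after seeing the data, detection on at least 4 of the 12 arrays other than the treated WT arrays, gave 0 probes at adjusted p of 0.05 or less, 1059 at unadjusted p under 0.05 and 152 separated.

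Leaving out 1 WT pool, medians ran from −0.041 to 0.094 for PPARG targets, 0.085 to 0.38 for fat synthesis, −0.082 to 0.049 for lipolysis, 0.11 to 0.23 for thioesterases, 0.018 to 0.13 for beta-oxidation, 0.041 to 0.22 for the tricarboxylic acid cycle, −0.080 to 0.060 for adipogenic factors, −0.48 to −0.28 for antigen presentation, −0.00088 to 0.21 for macrophage lysosomes, −0.15 to −0.098 for cytokines, −0.068 to 0.32 for lymphocytes, 0.054 to 0.098 for matrix proteases, 0.17 to 1.30 for ciliated cells, 0.081 to 0.26 for nerve and −0.17 to −0.029 for blood cells. Of these, the medians of PPARG targets, lipolysis, adipogenic factors, macrophage lysosomes and lymphocytes changed sign. The ciliated cell and lymphocyte lists each hold 2 genes that passed only through the treated WT arrays. Without these, medians in treated pools 1 and 2 were 0.27 and 0.34 for ciliated cells. For lymphocytes they were −0.18 and −0.14, without a change of sign.

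Whether replicate numbers pair the pools is not known. Correlations of same-numbered deviations between groups ran from −0.10 to 0.27, the highest being between WT vehicle and Fgf21-KO vehicle. A replicate block gave 0 probes at adjusted p of 0.05 or less and 1252 at unadjusted p under 0.05.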
